A study of Mus musculus with 4 samples.

Results

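The genes described here encode the proteins of the cytosolic ribosome, the particle that makes nearly all of the protein of a cell. They were taken from the array as every gene probe whose gene name is Rpl or Rps followed by a number, with the usual letter suffixes, or Rplp0, Rplp1, Rplp2 or Rpsa. This gave 81 genes of 27744 gene names, read by 135 probes, and the brightest probe stood for each gene. Of the 81 genes, 31 encode proteins of the small subunit, 43 proteins of the large subunit and 3 the P proteins of the stalk, and 4 are paralogs named for another member (Rpl3l, Rpl7l1, Rpl22l1 and Rps27l).

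The arrays were used to ask whether the behaviour of mouse embryonic fibroblasts (MEFs) without cyclin G1 or cyclin G2, which act in the response to DNA damage, goes with the expression of particular genes. MEFs are connective-tissue cells cultured from embryos, and all came from C57BL/6J mice by the strain label and were harvested untreated in logarithmic growth. G1KO was Ccng1-/- (written CycG1-/- in the labels), in which a PGK-neo cassette took the place of the coding exons, and its WT was CycG1+/+. G2KO was Ccng2-/- (CycG2-/-), from a line of mice made earlier, and its WT was CycG2+/+. RNA of a knockout and of its WT was hybridised together on 2 arrays with the dyes Cy5 and Cy3 exchanged, which gave 4 arrays in all, and the WT RNAs were not shared. Each comparison therefore had 1 knockout RNA against 1 WT RNA. All 4 arrays shared a slide and a scan. No difference below has a biological replicate. Values after ± are the technical SD over both arrays of a comparison, and no p-value is given. Ratios are log2 of knockout over WT, and where a pair of ratios is given, the first is from the array with knockout RNA in Cy5 and the second from that with it in Cy3.

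A ribosome has a small subunit, which reads the mRNA, and a large subunit, which joins amino acids. Most of the protein parts are present in a single copy per particle, so cells make them in step, and their mRNAs belong to the most abundant of a growing cell. These mRNAs start with a cytosine followed by a run of pyrimidines (the 5′ terminal oligopyrimidine tract, or TOP), through which the kinase mTOR controls their translation. When assembly fails, free proteins such as Rpl5 and Rpl11 bind Mdm2, the ubiquitin ligase of p53, and p53 is then stabilised.

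Sequence around the start of transcription was read from the RefSeq promoter table of build GRCm38.p6, which held 60 of the 81 genes in 72 entries. The windows of 30 bases below are shown for both paralog pairs in which a paralog stood out in the ratios (Rpl22 with Rpl22l1, Rps27 with Rps27l), for Rps12, which differed most between the comparisons among the core members, and for Rps6 and Rpl28, whose G2KO ratios lay near the median of all members. All are given on the strand of the gene, and capitals mark the longest run of C and T from 20 bases before to 30 after the annotated start.
Rpl22l1: agcccgTTCTCTTCCCacggctgcagctca
Rpl22: gcgctgCTTCTggaatgttccagctcccac
Rps27l: tctccaCTCCTCCCCgccgcctctatcccg
Rps27: ctttcgCTCCTTTCCggcggtgacgacctc
Rps12: cgccggCCTTTTCCCCTgccgccgccgact
Rps6: gtcgggCCTCTTTTTCgtgacgcctcccag
Rpl28: ctcgtgTCTCTCTTTCCgtctccggccgcc

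The windows lie at chr3:28805503-28805532, plus strand (Rpl22l1), chr4:152324420-152324449, plus strand (Rpl22), chr9:66946068-66946097, plus strand (Rps27l), chr3:90213627-90213656, minus strand (Rps27), chr10:23787178-23787207, minus strand (Rps12), chr4:86857345-86857374, minus strand (Rps6) and chr7:4792956-4792985, plus strand (Rpl28). A run of at least 8 pyrimidines was found in 48.6% of the 72 entries, against 19.0% of all 32851 promoters in the table. Rpl22l1, Rps27l, Rps27, Rps12, Rps6 and Rpl28 had such a run, while the longest in Rpl22 was 5 bases. Where a gene had several entries, that with the longest run was taken. Counted from the annotated start, the runs began at 1 (Rpl22l1), -12 (Rps27l), -2 (Rps27), 8 (Rps12), -1 (Rps6) and -3 (Rpl28). The Rps27l run thus ended before the annotated start, and whether any of these runs opens the mRNA was not tested. In the whole window from 250 bases before to 50 after the start, CCGGAAG (the core of an Ets factor site, either strand) was present in 34.7% of the entries and in 8.86% of all promoters. ATGGCG (the core of a YY1 site, either strand) was found in 30.6% against 8.93%, and GGGCGG (the core of an Sp1 site, either strand) in 59.7% against 35.7%. TATAAA on the strand of the gene was as frequent in the entries (8.33%) as in all promoters (8.32%). None of these motifs contains another. They are matches of letters and were not tested as sites.

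The targeted genes and cell type markers were checked on the same arrays. The Ccng1 probe read -6.67 ± 0.13 in G1KO and 2.67 ± 0.029 in G2KO. Ccng2 was at 0.086 ± 0.27 in G2KO, so the RNA labelled G2KO showed no loss of Ccng2 mRNA at this probe, and the direction of that comparison rests on the label. All 12 fibroblast markers were well above background in all 4 RNAs. In G2KO, however, 7 of the 12 were at least 2-fold lower than in WT on both arrays and none higher. Over all gene names 4.84% were 2-fold lower in G2KO and 2.73% higher. The summed signal of the fibroblast list lay at 18.31 to 18.86 on the log2 scale in G2KO against 19.72 to 19.76 in its WT. Of 6 neural and glial markers, Sox2 (5.59 ± 0.35), Nes (3.37 ± 0.23) and Foxa2 (6.10 ± 0.18) were higher in G2KO. The other 3 were below 0 on both arrays, the lowest at -0.73, and the sum of the list was 14.93 to 14.94 against 11.42 to 11.60. Of the 4 neural and glial markers tested in G1KO, 1 was 2-fold higher on both arrays and none was 2-fold lower. Among the fibroblast markers 2 were 2-fold higher in G1KO and 1 was 2-fold lower, where the shares over all gene names were 2.48% and 4.46%. In G1KO 5 of 7 mesothelial markers were lower and Krt19 was higher, with a sum of 15.69 to 15.92 against 17.55 to 17.90. Of 4 epithelial markers, Krt14 was lower in G1KO (-2.09 ± 0.082), the sum of the list was 11.69 to 11.85 in G1KO against 13.75 to 13.81 in its WT, Krt5 and Cdh1 were also well above background in both these RNAs, and Epcam in none. Ptprc, Hba-a1 and Gata1 of blood and Pecam1, Cdh5 and Tek of endothelium were not well above background on both arrays of any RNA. Cd68 of blood was in all 4 RNAs (-0.11 ± 0.091 in G1KO and -0.023 ± 0.076 in G2KO), and Kdr of endothelium in G1KO and its WT (0.058 ± 0.065). The part of these cell type markers in the ratios of ribosomal protein genes was not tested, and in bulk RNA fewer cells of a type cannot be told apart from less RNA per cell.

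Ribosomal protein genes were among the brightest on the array, and 67 of the 81 lay in the brightest 1% of probes. Rpl3l, a muscle paralog of Rpl3, was not well above background in any of the 4 RNAs and was not tested. Another 11 members (Rpl5, Rpl6, Rpl13a, Rpl23, Rpl36, Rps4x, Rps10, Rps14, Rps20, Rps26 and Rps27) had no value on the G1KO array with knockout RNA in Cy3, because the scanner software had marked the spot as an outlier. The G1KO comparison thus covered 69 members and the G2KO comparison 80.

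On all 4 arrays the members leaned toward one dye. Over the 69 members tested in G1KO the median log2 ratio stood at 0.23 with the knockout RNA in Cy5 and -0.15 with it in Cy3. For G2KO the values were 0.44 and -0.029 over 80 members. The dye lean of a gene, which is 0.5 times the difference between its ratios on the 2 arrays, had a median of 0.19 and 0.22 in the pairs, against 0.0076 and 0.0075 over all gene names tested. It pointed to Cy5 in 60 of 69 and in 72 of 80 members. Each gene had nearly the same lean in both pairs, from -0.18 for Rplp0 to 0.53 for Rpl41 in G1KO and from -0.16 to 0.55 for the same genes in G2KO (Pearson r = 0.959 across 69 genes, which share the arrays and are not independent). Over all 15731 gene names tested in both pairs r was 0.787.

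**Figure D1:**
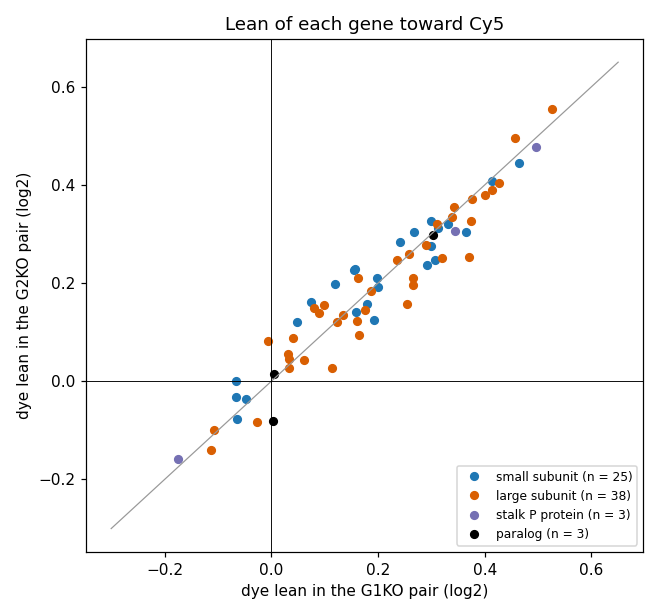
Dye lean of 69 ribosomal protein genes on the arrays of G1KO (horizontal axis, log2) and of G2KO (vertical axis, log2), 1 point per gene coloured by its place in the ribosome. The lean is 0.5 times the ratio with knockout RNA in Cy5 minus that with it in Cy3, positive values point to Cy5, and the points follow the grey line of equal lean (r = 0.959).

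The 306 other gene names in the brightest 1% of probes had a median lean of 0.11 in each pair, with 251 and 305 of them tested. The 56 and 67 members in that range had medians of 0.26 and 0.25. Between 82.7% and 93.8% of the members had a signal scaled up from the scanner's second reading at low gain, depending on the channel and array, against 1.13% to 4.26% of all gene probes. The part of brightness and of this scaling in the lean was not tested. The mean of both arrays balances the lean, and the value on each array is given below for the members described.

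No member was 2-fold higher or lower in a knockout on both arrays of a pair. The same rule took in 6.94% of all gene names tested in G1KO (2.48% higher and 4.46% lower) and 7.57% of those in G2KO (2.73% higher and 4.84% lower). At a log2 ratio past 0.5 on both arrays, 1 of 69 members was called in G1KO (Rpl22l1, lower), where 18.3% of all gene names were (7.46% higher and 10.9% lower). By the same rule 4 of 80 members were called in G2KO (Rpl18, Rpl22l1, Rps15 and Rps27l, all higher), where the share over all gene names was 20.4% (8.77% higher and 11.6% lower). With median centring in place of loess none of these was called, and with the member median subtracted on each array, an alternative chosen after seeing the data, Rps27l alone was left in G2KO. Fewer members than gene names in general were thus past either threshold, but a dye lean makes the rule on both arrays harder to meet. Of the other gene names in the brightest 1% of probes, 1 was 2-fold higher and 4 lower in G1KO (251 tested). In G2KO 4 were higher and 5 lower (305 tested). Past 0.5, 9 were higher and 16 lower in G1KO, and 17 and 32 in G2KO. The SD of the log2 ratio over members was 0.214 in G1KO and 0.281 in G2KO, against 0.638 and 0.686 over all gene names. Over the other bright gene names it was 0.424 and 0.496.

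The median member ratio was 0.034 in G1KO (quartiles -0.11 and 0.15), against -0.0024 for all gene names, and 39 of 69 members had a mean above 0. In G2KO the median was 0.23 (quartiles 0.014 and 0.38), against -0.016 for all gene names, and 60 of 80 members had a mean above 0. On the single arrays the G2KO median was 0.44 and -0.029, so it was above 0 on one dye orientation only. Both arrays of G1KO gave a ratio above 0 for 10 of 69 members (14.5%, against 40.1% of all gene names) and below 0 for 11 (15.9%, against 41.1%). In the remaining 48 members the sign turned with the dye (69.6%, against 18.9% of all gene names). Of the other gene names in the brightest 1% of probes, 31.5% were above 0, 33.5% below, and 35.1% turned their sign. In G2KO 36 of 80 members were above 0 on both arrays (45.0%, against 39.9%) and 7 were below 0 on both (8.75%, against 43.9%). The sign turned with the dye in 37 (46.2%, against 16.2%). For the other bright gene names the G2KO shares were 35.4% above, 39.7% below and 24.9% turned. Members that kept a sign in G2KO were thus mostly higher in the knockout, while in G1KO they were split. These counts depended on the scaling: with median centring in place of loess 0 members in G1KO and 1 in G2KO were above 0 on both arrays, and with the scanner's own ratio 22 were in G1KO.

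**Figure D2:**
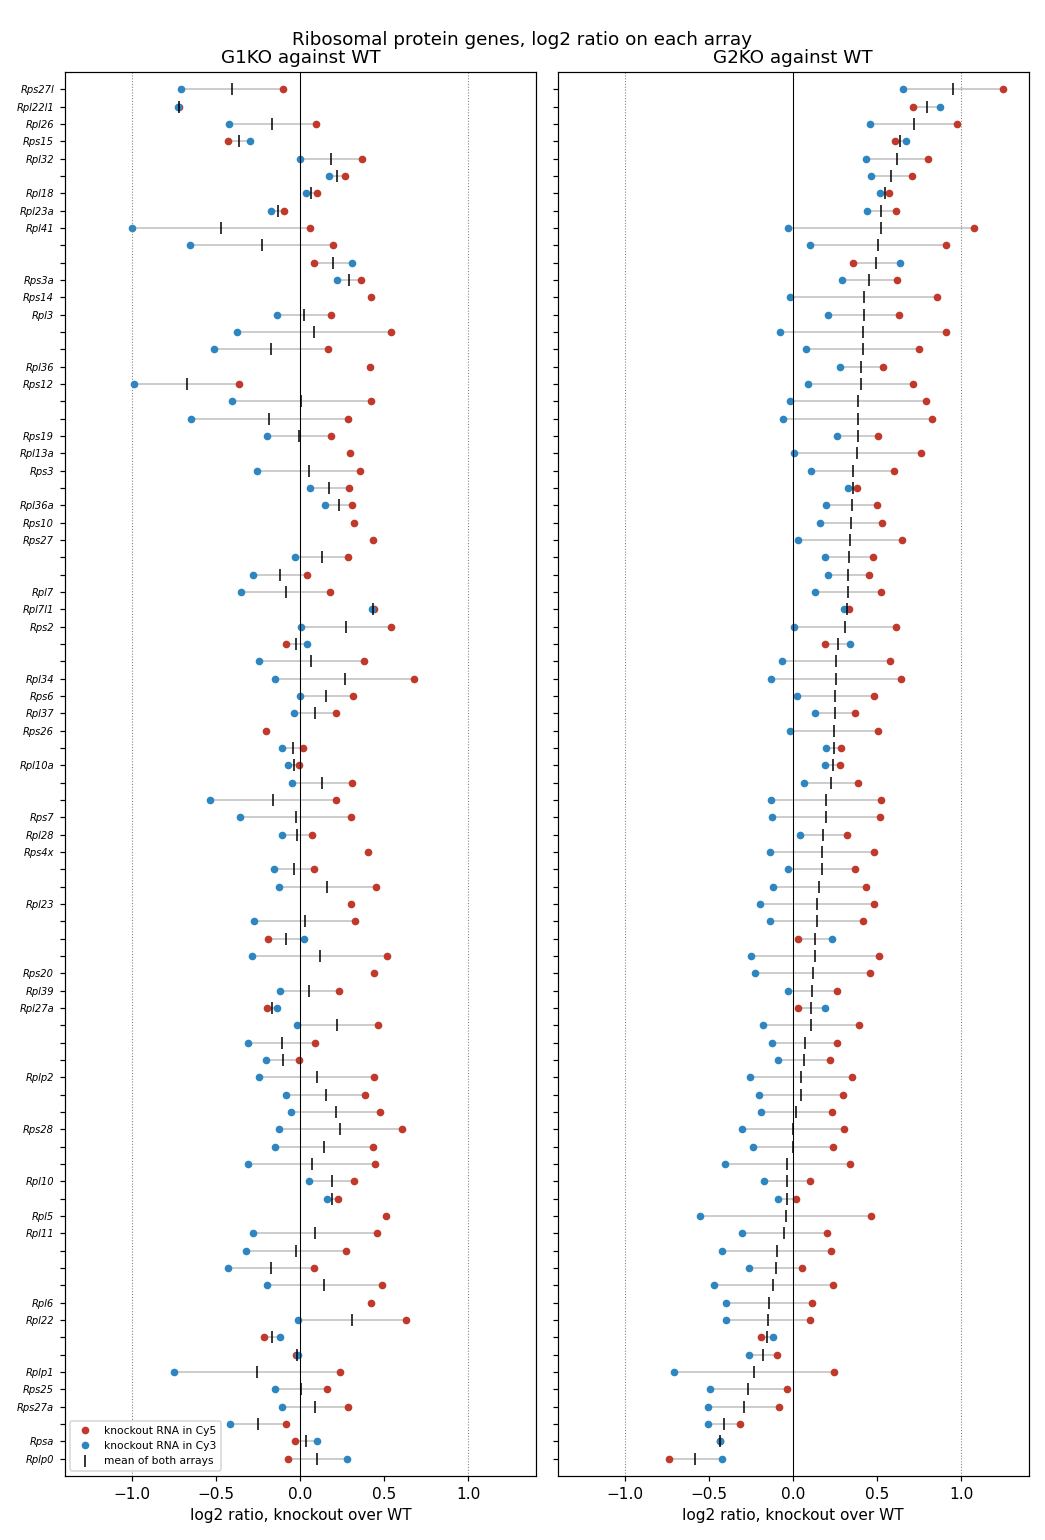
Log2 ratio of knockout over WT of each ribosomal protein gene in G1KO (left) and G2KO (right), with red points for the array with knockout RNA in Cy5, blue points for that with it in Cy3, and black ticks for their mean. The 80 genes tested in G2KO are ordered by their G2KO mean, those described in the text are named on the axis, dotted lines mark 2-fold, genes with only a red point on the left lost the other spot as an outlier, and no gene has both points past the same dotted line.

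Among the 31 proteins of the small subunit, the median ratio was 0.026 in G1KO (25 tested) and 0.24 in G2KO. In G2KO 13 of them (41.9%) were above 0 on both arrays and 4 (12.9%) below, against 39.9% and 43.9% of all gene names. Rps15, a protein of the head of the subunit, was lower in G1KO and higher in G2KO (probe at chr10:79696842-79696901, plus strand, build mm8). Its log2 ratios were -0.43 and -0.30 in G1KO and 0.60 and 0.67 in G2KO. The means were -0.36 ± 0.092 (0.778-fold) and 0.64 ± 0.045 (1.56-fold). All 4 values kept their sign whichever dye the knockout RNA carried.

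Rps12, a small subunit protein on chromosome 10, was lower in G1KO (-0.36 and -0.99, mean -0.68 ± 0.44) and higher in G2KO (0.71 and 0.090, mean 0.40 ± 0.44). Its sign held on each array, but the G2KO mean was no larger than the SD between the arrays. The other members on chromosome 10 ran the same way by their means or by the only G1KO array. These were Rps15, Rpl41 (-0.47 ± 0.75 in G1KO and 0.52 ± 0.78 in G2KO) and Rps26 (-0.20 on 1 G1KO array and 0.24 ± 0.37 in G2KO). The part of chromosome position was not tested. Rps3a was above 0 on all 4 arrays, with means of 0.29 ± 0.10 in G1KO and 0.45 ± 0.23 in G2KO. Rps2 and Rps28 were among the 6 highest members of G1KO (0.27 ± 0.38 and 0.24 ± 0.52), yet with their knockout RNA in Cy3 the ratios were 0.0018 and -0.13.

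At the lower end of G2KO stood Rpsa, which is both a ribosomal protein and the laminin receptor precursor. Its ratios were -0.43 and -0.44 in G2KO (mean -0.44 ± 0.0017) and -0.032 and 0.10 in G1KO. The second Rpsa probe, at chr9:119980547-119980606, plus strand, read -0.81 and -0.58 in G2KO, so both probes were lower on both arrays. Rps25 and Rps27a, of which the second is made as a fusion with ubiquitin, had G2KO ratios of -0.038 and -0.49 (Rps25) and of -0.081 and -0.50 (Rps27a). In G1KO the sign of both turned with the dye.

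Rps6, whose phosphorylation by S6 kinases is the usual readout of mTOR activity, gave 0.31 and -0.0019 in G1KO and 0.48 and 0.023 in G2KO, with means of 0.16 ± 0.22 and 0.25 ± 0.32. Rps3, which also takes part in DNA repair, gave 0.36 and -0.26 in G1KO and 0.60 and 0.11 in G2KO. Rps19, the gene most often mutated in Diamond-Blackfan anaemia, gave 0.18 and -0.20 in G1KO and 0.51 and 0.26 in G2KO. Both were higher with the knockout RNA in Cy5. Rps7, which binds Mdm2, gave 0.30 and -0.36 in G1KO and 0.52 and -0.13 in G2KO. Of these 4 genes, Rps3, Rps6 and Rps19 were above 0 on both G2KO arrays, and none kept a sign in G1KO.

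The 43 proteins of the large subunit had a median ratio of 0.059 in G1KO (38 tested) and 0.20 in G2KO, close to that of the small subunit. In G2KO 20 of them (46.5%) were above 0 on both arrays and 2 (4.65%) below, against 39.9% and 43.9% of all gene names. Rpl26, which binds the mRNA of p53 besides its place in the ribosome, had the highest mean of the large subunit in G2KO. It gave 0.98 and 0.46 there (mean 0.72 ± 0.37, 1.64-fold) and 0.092 and -0.43 in G1KO (mean -0.17 ± 0.37). Rpl32 followed with 0.80 and 0.44 in G2KO (mean 0.62 ± 0.26) and 0.37 and -0.0045 in G1KO.

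Of the 4 members called in G2KO, Rpl18 had the arrays closest together, at 0.57 and 0.52 (mean 0.55 ± 0.038, 1.46-fold), and it was at 0.065 ± 0.046 in G1KO. Rpl23a, which lies at the exit of the peptide tunnel, was at 0.61 and 0.44 in G2KO and at -0.095 and -0.17 in G1KO. Rpl41, the shortest ribosomal protein, had the widest gap between the arrays of a pair. It gave 0.056 and -0.998 in G1KO and 1.08 and -0.031 in G2KO, and its means (-0.47 ± 0.75 and 0.52 ± 0.78) were smaller than the SD between the arrays.

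Rpl11, which binds Mdm2, turned its sign with the dye in both comparisons (0.46 and -0.28 in G1KO, 0.20 and -0.31 in G2KO). A second, dimmer Rpl11 probe lies within the interval of the first, at chr4:135322118-135322177, minus strand, and it read 0.50 and 0.49 in G1KO and -0.15 and -0.25 in G2KO. The interval of the first probe is longer than its 60 bases, as for a probe that spans an intron. The brighter probe thus followed the dye and the dimmer one kept its sign. If the first probe spans 1 intron, its bases lie at the ends of its interval and the dimmer probe lies inside that intron. The dimmer probe may thus not read the mature Rpl11 mRNA. Rpl3, which lies close to the centre where peptide bonds form, gave 0.18 and -0.14 in G1KO and 0.63 and 0.21 in G2KO. Rpl34 was among the 6 highest members of G1KO (0.26 ± 0.59), although its ratio there was -0.15 with the knockout RNA in Cy3.

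Rplp0, Rplp1 and Rplp2 form the stalk that recruits translation factors to the large subunit. Rplp0 was the lowest of all members in G2KO, with -0.74 and -0.42 (mean -0.58 ± 0.22, 0.669-fold), whereas in G1KO it gave -0.076 and 0.28. It was also the member with the strongest lean toward Cy3 in both pairs. Rplp1 gave 0.24 and -0.75 in G1KO and 0.25 and -0.71 in G2KO, nearly the same pair of values in each comparison, and Rplp2 gave 0.44 and -0.25 in G1KO and 0.35 and -0.26 in G2KO. The sign of both turned with the dye.

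The paralogs held the highest and lowest means, apart from the lowest of G2KO. Rpl22l1 can take the place of Rpl22 in the ribosome, and in other cells each is known to limit the amount of the other. The bright Rpl22l1 probe (chr3:28998348-28998407, plus strand, build mm8) gave -0.72 and -0.73 in G1KO, a mean of -0.72 ± 0.0050 or 0.606-fold, and 0.72 and 0.88 in G2KO, a mean of 0.80 ± 0.11 or 1.74-fold. It was the only member called at 0.5 in both comparisons, in opposite directions. As log2 signal, its level was 14.96 and 14.91 in G1KO on the 2 arrays against 15.68 and 15.64 in its WT, and 15.87 and 16.10 in G2KO against 15.15 and 15.22 in its WT. The G1KO and G2KO levels thus lay to either side of the levels in the WT RNAs, which themselves were higher in the WT of G1KO. The other Rpl22l1 probe, at chr3:28996692-28996751, plus strand, read 0.12 and 0.049 in G1KO and 0.31 and -0.052 in G2KO, where its sign turned with the dye. Its log2 signal was only 6.34 to 6.67, and background correction shrinks the ratios of such dim probes. It therefore cannot show whether the level was lower in G1KO. Rpl22 itself, by its bright probe at chr4:151173849-151173908, plus strand, gave 0.63 and -0.012 in G1KO and 0.10 and -0.40 in G2KO. Its second probe, at chr4:151177703-151177762, plus strand, gave 0.12 and 0.18 in G1KO and -0.54 and -0.50 in G2KO, past 0.5 and lower on both G2KO arrays. The mean of each Rpl22 probe was thus above 0 in G1KO and below 0 in G2KO, opposite in sign to the bright Rpl22l1 probe, except that with median centring in place of loess the bright Rpl22 probe was at 0.025 in G2KO.

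Rps27l, a paralog of Rps27 and a known target gene of p53, was the highest of all members in G2KO. Its probe (chr9:66746823-66748513, plus strand) has an interval longer than 60 bases and gave 1.25 and 0.65 there, a mean of 0.95 ± 0.42 or 1.93-fold. In G1KO it gave -0.10 and -0.71, a mean of -0.41 ± 0.43. All 4 values kept the sign of their pair, but with the knockout RNA in Cy5 the G1KO ratio was near 0. Rps27 gave 0.65 and 0.028 in G2KO and 0.43 on the single G1KO array that measured it. Other p53 targets, chosen after their values were seen, were at -0.77 ± 0.067 (Cdkn1a) and -0.92 ± 0.13 (Mdm2) in G1KO and at 2.75 ± 0.13 and 1.69 ± 0.015 in G2KO, and Ccng1 itself belongs to this group of genes. The p53 target Sesn1 ran the other way, at 0.076 ± 0.089 in G1KO and -0.32 ± 0.090 in G2KO, while Sesn2 was at -0.082 ± 0.24 and 0.67 ± 0.22. The relation of p53 targets to the Rps27l ratios was not tested.

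**Figure D3:**
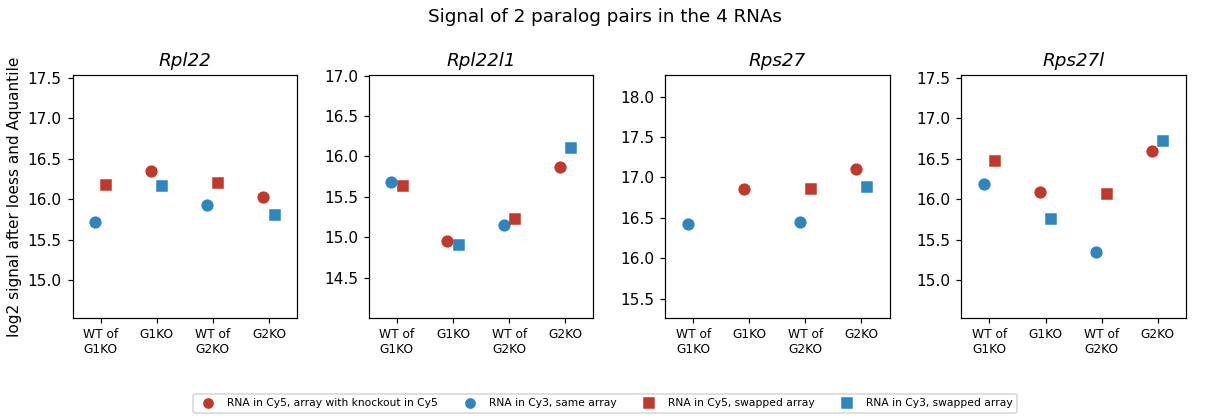
Log2 signal after loess and Aquantile normalisation (vertical axes, each spanning 3 units) of Rpl22, Rpl22l1, Rps27 and Rps27l in the 4 RNAs, with red for Cy5 and blue for Cy3, circles for the array with knockout RNA in Cy5 and squares for the swapped array. The Rpl22l1 points lie at 14.91 to 14.96 in G1KO and at 15.87 to 16.10 in G2KO, Rps27 lacks the swapped G1KO array, and levels are to be compared within a gene only.

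Rpl7l1, related to Rpl7 and used in the assembly of the large subunit, had the highest mean in G1KO. It gave 0.44 and 0.43 in G1KO (mean 0.43 ± 0.0070, 1.35-fold) and 0.33 and 0.30 in G2KO (mean 0.32 ± 0.022). The second Rpl7l1 probe gave 0.35 and 0.33 in G1KO and 0.27 and 0.37 in G2KO, so both probes were above 0 on all 4 arrays. Its dye lean was 0.0050 in G1KO and 0.015 in G2KO, among the smallest of the members.

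Ratios of the members in the 2 comparisons were nearly unrelated. Over 69 members Pearson r was -0.262 and Spearman rho -0.156, and without the 3 paralogs r was -0.125. These r values run across genes measured on the same arrays and are a description only. The ratio was below 0 on both G1KO arrays and above 0 on both G2KO arrays in 7 of 69 members (10.1%), against 16.9% of all gene names tested. They were Rpl10a, Rpl22l1, Rpl23a, Rpl27a, Rps12, Rps15 and Rps27l. A member whose sign turned with the dye in either comparison could not be among them. Rpl10a, a protein of the L1 stalk, was close to 0 in G1KO (-0.0068 and -0.072) and at 0.28 and 0.19 in G2KO. Rpl27a gave -0.20 and -0.14 in G1KO and 0.027 and 0.19 in G2KO, and its second, dimmer probe gave 0.31 and 0.22 in G1KO, above 0 on both arrays. By its brightest probe no member showed the opposite pattern, which 19.0% of all gene names did. Dimmer probes of some members did, such as those of Rpl22 and Rpl11, of which the Rpl11 probe may not read the mature mRNA. With median centring in place of loess no member ran below 0 in G1KO and above 0 in G2KO, and with the scanner's ratio 16 did. The opposite pattern appeared in 1 member with the scanner's ratio (Rpl21) and in 2 with the mean of all tested probes (Rpl19 and Rpl22). After subtraction of the member median on each array 8 members showed it, against 11 that ran below 0 in G1KO and above 0 in G2KO.

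**Figure D4:**
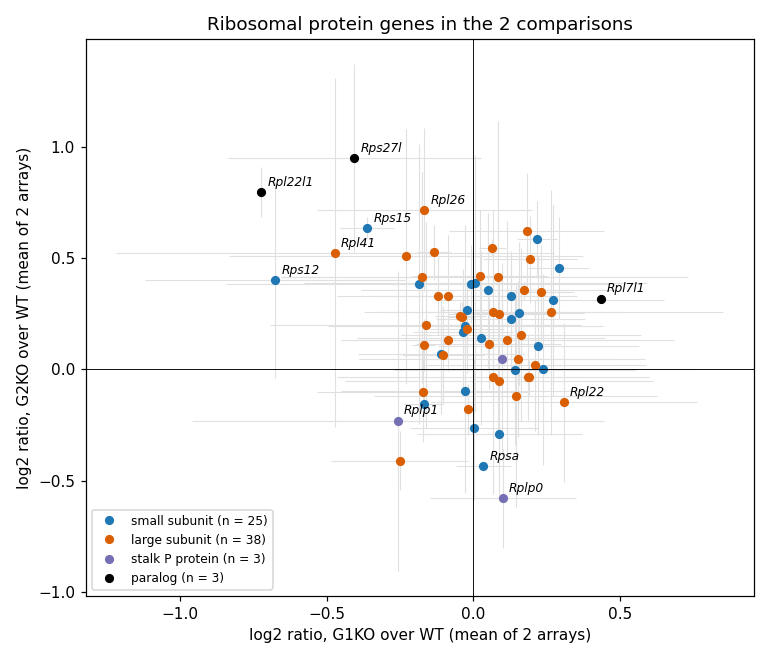
Mean log2 ratio of 69 ribosomal protein genes in G1KO (horizontal axis) and in G2KO (vertical axis), coloured by their place in the ribosome, with grey bars for the SD over both arrays. Rpl22l1 and Rps27l lie apart at the upper left, and most genes lie above 0 on the G2KO axis and around 0 on the G1KO axis.

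Of 13 members known to bind Mdm2, none was called at 0.5 in G1KO, where 8 were tested with a median of -0.013, and 2 (Rps15 and Rps27l) were called in G2KO, where all 13 were tested with a median of 0.25. Over all gene names 18.3% and 20.4% were called by this rule in G1KO and G2KO. In G2KO Rpl5, which binds Mdm2 together with Rpl11 and the 5S rRNA, gave 0.46 and -0.55. Rpl23 gave 0.48 and -0.20 and Rps14 gave 0.86 and -0.017, so that by their brightest probes all these turned their sign with the dye. The second Rpl23 probe, at chr11:97593693-97593752, minus strand, did not, as it gave -0.63 and -0.44 in G1KO and -0.24 and -0.11 in G2KO and was thus lower on all 4 arrays. The 9 members mutated in Diamond-Blackfan anaemia, a failure of red cell formation, had medians of 0.076 in G1KO (6 tested) and 0.24 in G2KO, and none was called at 0.5. Both medians lay close to those over all members.

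Xist, the RNA that silences an X chromosome in female cells, was higher in both knockouts (7.54 ± 0.43 in G1KO and 7.24 ± 0.46 in G2KO). The paper puts this down to the female origin of these knockout MEFs. Sex thus went with genotype in both comparisons, and their parts in any ratio cannot be told apart. The X-linked members were therefore looked at separately. Rpl36a gave 0.31 and 0.15 in G1KO and 0.50 and 0.20 in G2KO and was above 0 on all 4 arrays. Rpl10, which completes the large subunit, gave 0.32 and 0.054 in G1KO and 0.10 and -0.17 in G2KO by its brightest probe, which the array design places on chromosome 13. The other Rpl10 probe, on the X chromosome at chrX:70525479-70525538, plus strand, gave 0.27 and 0.13 in G1KO and 0.016 and -0.030 in G2KO. Both Rpl10 probes were thus above 0 on both G1KO arrays and close to 0 in G2KO. Rpl39 gave 0.23 and -0.12 in G1KO and 0.26 and -0.030 in G2KO. Rps4x was at 0.40 on 1 G1KO array and at 0.48 and -0.13 in G2KO. The medians of the X-linked members were 0.19 (3 tested) and 0.14 (4 tested). None was called at 0.5, against 18.3% of all gene names in G1KO and 20.4% in G2KO.

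Where a gene had several probes, these mostly read alike. Of 33 members with over 1 tested probe in G1KO, 2 (Rpl22l1, by its dim second probe, and Rpl27a) had probes that were opposed in sign on both arrays each, and of 39 in G2KO, 1 (Rpl37) did. A probe whose sign turned with the dye, or that was not tested, could not count as opposed, so these counts are low in part by their rule. The median gap between the lowest and the highest probe of a gene was 0.089 in G1KO and 0.105 in G2KO. Many ribosomal protein genes have processed copies elsewhere in the genome, and the signal of a gene and of a near-identical copy cannot be told apart. The array held 41 further probes described as similar to a ribosomal protein, and their median ratios were 0.030 in G1KO (34 tested) and 0.37 in G2KO (40 tested). In G2KO 33 of these 40 (82.5%) were above 0 on both arrays, against 39.9% of all gene names. Their median lean there was 0.049, well under that of the members.

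For the 11 members without a second G1KO array, only the ratio with knockout RNA in Cy5 was left at the brightest probe, which cannot be balanced for the dye. It was above 0 in 10 of them, up to 0.51 for Rpl5, and -0.20 for Rps26. With the outlying spots kept, Rps26 gave -0.71 with the knockout RNA in Cy3 and was thus below 0 on both arrays, and Rpl36 gave 0.18 and was above 0 on both. The other 9 turned their sign with the dye. Of these, 4 had a dimmer probe that was measured on both G1KO arrays. Rpl23 was lower by that probe, as above, and Rps4x gave -0.12 and -0.11. Both were thus below 0 where the brightest probe was above 0 with the knockout RNA in Cy5. Rpl6 gave 0.18 and -0.094 and Rps20 0.12 and -0.092, whose sign turned with the dye.

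Other genes of the pathway were read the same way. Of 20 further genes whose mRNAs carry a TOP, none was called at 0.5 in either comparison, against 18.3% of all gene names in G1KO and 20.4% in G2KO. The medians were -0.033 in G1KO (17 tested) and 0.20 in G2KO (20 tested), with 12 above 0 and 2 below 0 on both G2KO arrays. Eef2, the elongation factor that moves the ribosome along the mRNA, was at -0.42 ± 0.089 in G1KO and 0.41 ± 0.13 in G2KO, with the sign kept on each array. Eef1a1, which brings in aminoacyl-tRNA, was at -0.033 ± 0.40 and -0.012 ± 0.39. Fau, made as a fusion with the small subunit protein Rps30, was at -0.17 ± 0.083 and 0.18 ± 0.14, and Rack1, a scaffold on the small subunit, at 0.12 ± 0.68 in G2KO.

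Ribosome biogenesis factors process and assemble rRNA. Of 39 on the array, 7 were higher and 1 lower past 0.5 in G2KO (8.77% and 11.6% over all gene names) and none was called in G1KO (18.3% over all gene names), with medians of 0.17 and 0.061. Their medians on the single G2KO arrays were 0.20 and 0.21, so this group had no lean of the kind seen in the members. Fbl, the methylase of rRNA, was at 0.38 ± 0.043 in G1KO and 0.38 ± 0.051 in G2KO. Among 17 genes of RNA polymerase I transcription, which makes the rRNA precursor, Cd3eap was 2-fold higher in G2KO (1.11 ± 0.11) and no other was called. Over all gene names 2.73% were 2-fold higher in G2KO, and 18.3% in G1KO and 20.4% in G2KO were called at 0.5. Proteins of the mitochondrial ribosome, which are encoded by a separate set of 75 genes, had medians of -0.064 in G1KO and 0.11 in G2KO. In G2KO 45 of the 75 were above 0 on both arrays and 16 below.

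In the growth control group of 19 genes, Mycn was lower in both comparisons (-2.96 ± 0.28 and -1.70 ± 0.21), and Deptor, an inhibitor bound to mTOR, was higher in G1KO (2.10 ± 0.059) and lower in G2KO (-1.27 ± 0.12). Those 2 were the genes of this group that passed 2-fold, which 6.94% of all gene names did in G1KO and 7.57% in G2KO. Myc, which drives the transcription of many ribosomal protein genes, was at 0.31 ± 0.028 in G1KO and -0.28 ± 0.030 in G2KO, and Mtor at 0.10 ± 0.21 and -0.61 ± 0.31. The 8 proliferation markers had medians of 0.26 and 0.41, and Mcm2 passed 2-fold in G2KO (1.07 ± 0.015). All 8 had a mean above 0 in G2KO, as 60 of the 80 ribosomal protein genes did, and the relation between these was not tested.

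**Figure D5:**
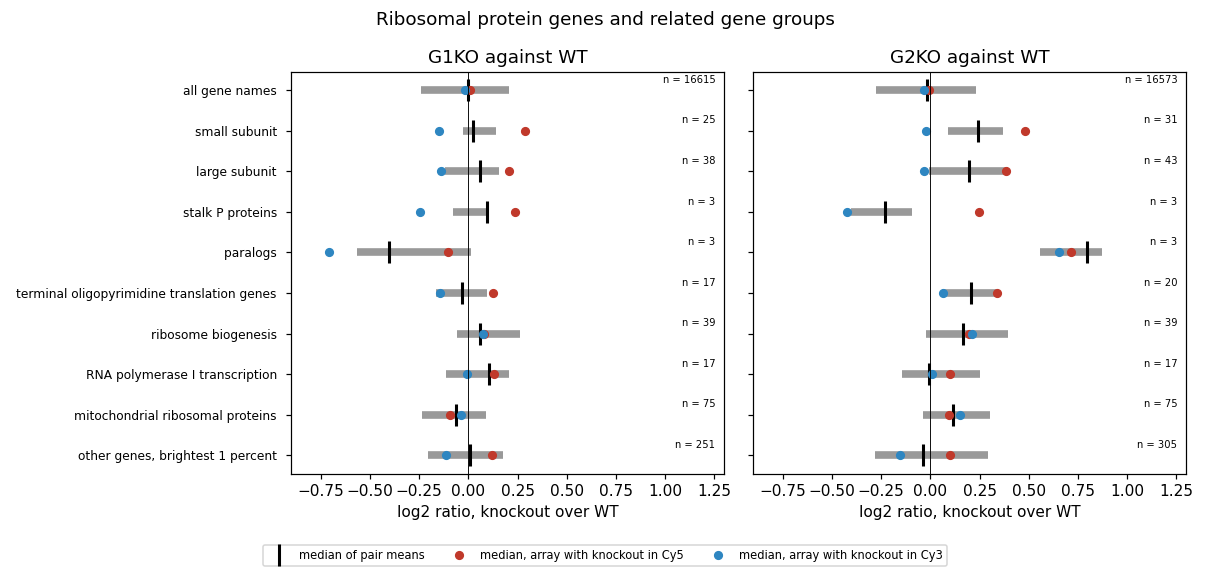
Log2 ratio of knockout over WT (horizontal axis) of ribosomal protein genes by their place in the ribosome and of related groups, in G1KO (left) and G2KO (right), with black ticks for the median of the pair means, grey bars for the quartiles over genes, and coloured points for the median on each array. In both panels the red and blue points of small and large subunit genes lie apart, while those of all gene names, ribosome biogenesis and mitochondrial ribosomal protein genes nearly coincide.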

How the data were processed

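RNA of 4 cultures was read on 4 two-colour Agilent arrays of 45018 spots. The authors quantified spots with Agilent Feature Extraction (10.5.1.1 per the file headers, 9.1 per the submitters' processing notes), and the deposited values used are mean spot and median local background intensity. The deposited log10 ratios, from the software and from the series table, served as alternatives, after conversion to log2. In limma 3.58.1 (R 4.3.3) the background was corrected by normexp with an offset of 50, which shrinks the ratios of dim probes. Control spots and outlier-marked spots (114 to 203 per array) were left out, and each array was normalised by loess over all gene probes. Spots of a probe were averaged, ratios turned to knockout over WT, and the arrays of a pair averaged as 1 replicate. The deposited p-value and other columns were not used. A probe was tested where at least 1 genotype was well above background on both arrays and both ratios were present. Calls needed a log2 ratio past 1.0, or past 0.5, in the same direction on both arrays. No spot was saturated, and with 2 arrays per comparison their number is what limits precision. Gene names and positions are those of the array design (build mm8). The steps were tested on simulated data.

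The members, the gene lists and the rule for the genes named (members past 2-fold, the 6 highest and 6 lowest of each comparison, the 6 that differ most, and a fixed set) were chosen with earlier results of these data known. A few genes under that rule are counted but not reported here by name. The alternatives were other background corrections, normalisations, filters on dim probes, rules for several probes and single arrays. Keeping outlier-marked spots, and subtracting the member median on each array, were added after seeing the data.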

Additional observations from a re-analysis of the deposited data

Results flagged for a closer look

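In 7 ribosomal protein genes both G1KO arrays were below 0 and both G2KO arrays above 0, so the comparisons ran in opposite directions, although the difference between them was not tested. These were 10.1% of the 69 members, against 16.9% of all gene names. The scanner's ratio gave 16 such members and median centring in place of loess 0. The log2 ratio of G2KO minus that of G1KO amounted to 1.52 for Rpl22l1, 1.36 for Rps27l, 1.08 for Rps12, 0.999 for Rps15, 0.66 for Rpl23a, 0.28 for Rpl10a and 0.28 for Rpl27a. The SD between arrays was at most 0.12 for Rpl22l1, Rps15 and Rpl23a, while the arrays of Rps12 and Rps27l stood further apart (SD 0.44 and 0.44 for Rps12, 0.43 and 0.42 for Rps27l). Rps12 and Rps15 both lie on chromosome 10, and the part of chromosome position was not tested. Each pair holds only 2 arrays, so no array could be assessed as an outlier.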

How the results depend on the processing

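The count of 0 members at 2-fold held under every alternative with both arrays, and on single arrays it was 0 to 2 in G2KO. The median member ratio ran from 0.030 to 0.071 in G1KO and from 0.20 to 0.39 in G2KO where both arrays were used. Subtraction of the member median is left out here, as it sets the ratio to about 0 by construction. On single arrays the median ran from -0.15 to 0.23 and from -0.029 to 0.44, and it turned its sign with the dye. These shifts were smaller than the SD between the medians of the 2 arrays. That SD holds the dye lean, however, and a single array falls within it nearly by construction, so it cannot show that the median is stable. Counts past 0.5 depended on the processing. In G1KO, in place of 1 (Rpl22l1), the scanner's ratio, the series table and subtraction of the member median each gave 2 (with Rps12), while median centring and the mean of all probes gave 0, and single arrays gave 7 to 9. In G2KO, in place of 4, the scanner's ratio and the series table gave 7 (Rpl26 and Rpl32 among those added), subtraction of the member median 1 (Rps27l), median centring 0 and single arrays 9 to 33. The mean of all probes also gave 4 there, without Rpl22l1 and with Rpsa, lower. For Rpl22l1 that mean takes in the dim second probe, in G1KO as well. Members above 0 on both arrays numbered 22 in G1KO with the scanner's ratio and the series table, 18 after subtraction of the member median, 16 with the mean of all probes and 0 with median centring, in place of 10, and in G2KO 1 with median centring, in place of 36. On single arrays, 14 to 54 and 36 to 73 members were above 0. Median centring leaves the dependence of the ratio on brightness in place, and the other causes were not tested. The ratios of Rpl22l1, Rps15 and Rps27l kept their sign under every alternative. No paired analysis was possible because the labels give no replicate numbers and each comparison has 1 RNA per genotype.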
